A study of Mus musculus with 12 samples.

Results

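A back-splice junction joins a downstream donor site to an upstream acceptor site and so closes an exon or a run of exons into a circular RNA. The junctions described here are those that share one of their ends with another junction of the same gene, so that 1 site is joined to 2 or more alternative partners. They were chosen from a table of junctions of mouse hippocampus by 3 conditions: an interval of at least 1000 and under 50000 bp, a named host gene with 2 to 7 listed junctions, and a start or end coordinate equal to that of another junction of that gene. Of the 7025 listed junctions 2265 met them (32.2%), in 893 of 2947 named hosts (30.3%). They formed 1340 shared-end sets, a set being all junctions of 1 gene with the same start or the same end, out of 2001 such sets in the whole table. Another 1150 junctions of the same length range, in any named host with 2 to 7 listed junctions, shared no end.

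Hippocampal RNA was from mice aged 7 months, either 5xFAD or wild-type (WT), with 3 samples in each of 4 groups. 5xFAD mice carry transgenes for mutant human proteins of familial Alzheimer's disease, APP among them, expressed in neurons under elements of the Thy1 gene, and WT mice carry none. Samples titled AT gave the junction table, in mm9 coordinates, and samples titled CG a table of FPKM per gene. The prefixes are not spelled out, while the design text names an A-tailing RNase R library, in which linear RNA is digested, and an rRNA-depleted one. Sex is not given, and no label says whether samples of a group came from separate animals, which means that each p-value speaks only of the spread among the samples at hand, which may be technical.

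The choice between partners is known as alternative back-splicing. When the acceptor is shared, the circles begin at the same exon and end at different ones, and when the donor is shared the reverse holds. Pairing of repeats in the flanking introns and RNA-binding proteins such as Qk and Adar are known to influence which sites are joined, and neurons are known for a rich set of circular RNAs. The junction reads identify the joined ends only, so the exons inside a circle are not known from this table.

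The AT libraries held 438790, 695539 and 695528 whole junction reads in WT replicates 1 to 3, and 191408, 683540 and 659414 in 5xFAD replicates 1 to 3. Values are the deposited signal, scaled between libraries. A single read was worth 0.866 in 5xFAD replicate 1, 0.374 in WT replicate 1 and 0.226 to 0.239 in the other libraries. Every listed junction reached at least 2.03 in all 3 libraries of at least 1 genotype. That level was read from the values and is taken here as the listing threshold. A count of 0 in 5xFAD replicate 1 allows a signal of up to 2.60 (3 reads, counting error only), which is above that threshold. Among the 2265 junctions, 1432 were listed through both genotypes (63.2%), 424 through WT only and 409 through 5xFAD only. A junction listed through 1 genotype only was below that threshold in at least 1 library of the other genotype, so the listing itself favours a difference. In the CG libraries neuronal Snap25 stood at 862 to 943 FPKM and liver Alb at or near 0. The library labelled CG 5xFAD replicate 3 had Thy1 at 305 FPKM against 1136 and 1172 in the other two 5xFAD libraries and 296 to 340 in WT, and microglial Cst7 at 0.250 against 49.7 and 42.4, so its values go against its label. CG WT replicate 1 held 2758 FPKM of the choroid plexus gene Ttr, against 32.9 and 55.6 in the other two WT libraries. The library labelled CG 5xFAD replicate 3 held 467, against 48.2 and 62.6 in 5xFAD replicates 1 and 2. No gene-level values came with the AT libraries, so their labels were not checked in this way.

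Most sets were pairs. The 1340 sets held 2 junctions in 1084 cases, 3 in 213, 4 in 33, 5 in 8 and 6 in 2. In 335 sets a partner lay outside the length range, and of these partners 116 were under 1000 bp and 209 were 50000 bp or longer. Of the 2265 junctions 984 shared only their start, 930 only their end and 351 both. The strand of the host, taken from the RefSeq promoter table of GRCm38.p6, was found for 1090 sets. Of these, 584 shared the acceptor (53.6%) and 506 the donor (46.4%).

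Junctions with a shared end were longer than those without. Their interval length had a median of 12173 bp (quartiles 5941 and 22280). The 1150 junctions of the same length range that shared no end had a median of 6754 bp. Those 1150 were taken from any named host within the same limits on listed junctions, not only from hosts of sharing junctions. For the sharing junctions, mean signal over the 6 libraries had a median of 9.48 (quartiles 5.18 and 22.6) and ran from 1.37 to 2720. The median was 7.24 without a shared end and 8.32 over the whole table. These are descriptions, since a listed partner is needed for a shared end to be seen. Of the summed AT signal, the sharing junctions held 39.3%, 40.7% and 40.5% in the WT libraries and 39.4%, 40.8% and 40.7% in the 5xFAD libraries. The means were 40.2% ± 0.786 and 40.3% ± 0.785 (SD, n = 3 each; exact two-sided permutation test, p = 0.6, where 0.1 is the smallest p that 3 against 3 can give).

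The alternative ends usually lay kilobases apart, as the histogram of distances shows. The smallest distance between alternative ends within a set had a median of 10228 bp (quartiles 4739 and 19857) and ran from 3 to 335556 bp. Only 33 sets had ends under 100 bp apart, and in 22 of these the distance was a multiple of 3.

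**Figure D1:**
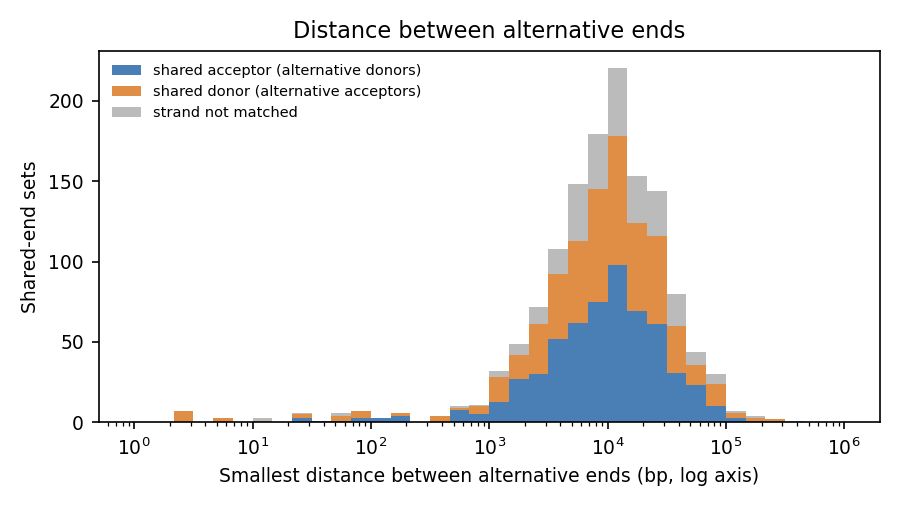
Histogram of the smallest distance between alternative ends in each of the 1340 sets, in bp on a log axis, with the number of sets on the vertical axis and colours for the shared site. The bulk lies around the median of 10228 bp, and the small group at the far left, within 12 bp, contains shared donors and sets without a strand but no shared acceptor.

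Alternative ends within 12 bp of each other were found in 13 sets, 7 of them at exactly 3 bp and 9 at a multiple of 3. All 11 of these with a known strand shared the donor, so that it was the acceptor that varied, and 0 shared the acceptor. Between 13 and 99 bp, 9 of 17 sets with a strand shared the donor, and at 100 bp or more 486 of 1062 did (45.8%). Tandem acceptors a few bases apart are a well-known form of alternative splicing in linear mRNA. The 7 sets at 3 bp were hosted by Kmt2a, Hivep2, Elf2, Mdm4, Opcml, Apbb2 and Rprd1b.

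In Elf2, which encodes an ETS transcription factor, the junctions chr3:51111971-51129957 and chr3:51111971-51129954 differed by 3 bp at the acceptor. The longer gave signals of 869, 943 and 1183 in WT and 1231, 788 and 1005 in 5xFAD, and the shorter 12.3, 18.9 and 19.6 in WT and 6.93, 15.6 and 14.1 in 5xFAD. The longer thus held 98.0% to 99.4% of the pair in every library. In Apbb2, whose product binds the intracellular domain of APP, the order was the other way. There chr5:66782865-66791520 gave 50.1, 50.6 and 90.5 in WT and 97.9, 57.2 and 80.3 in 5xFAD, while chr5:66782865-66791523, longer by 3 bp, gave 8.23, 8.66 and 6.55 in WT and 10.4, 5.65 and 14.8 in 5xFAD. The same donor had a further partner of 709 bp, below the length range, at 5.20 to 13.

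The p53 inhibitor Mdm4 used both acceptors of its pair, with the leader changing between libraries. The interval chr1:134905713-134909291 had 16.1, 14.6 and 12.4 in WT and 31.2, 12.9 and 10.8 in 5xFAD, against 27.3, 6.61 and 11.7 and 2.60, 7.23 and 9.08 for the one ending 3 bp earlier. Opcml, a cell adhesion gene, was similar: chr9:28709103-28710951 had 2.99, 6.84 and 8.89 in WT and 13.9, 4.75 and 5.98 in 5xFAD, and chr9:28709100-28710951 had 0, 7.52 and 9.36 and 2.60, 7.23 and 4.78. In neither gene did the genotypes separate.

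As in Apbb2, the 3 bp pairs of Kmt2a, Hivep2 and Rprd1b were part of a larger set. Kmt2a encodes a histone methyltransferase, and both junctions of the pair were under 1000 bp: chr9:44636866-44637354 gave 164, 170 and 139 in WT and 262, 158 and 90.3 in 5xFAD, and chr9:44636866-44637351 gave 5.15 to 10.4 in the 6 libraries. The junction in the length range, chr9:44636866-44638206, gave 4.12 to 8.65. In Hivep2, a zinc finger transcription factor, the pair exceeded 50000 bp (62484 and 62487 bp), and the 2 shorter junctions at the same donor, of 11293 and 34381 bp, gave 2.99 to 32.9 and 2.60 to 6.31. In Rprd1b, whose product binds the tail of RNA polymerase II, the pair of 2295 and 2298 bp stood at 1.73 to 19.1, beside 47.6 to 78.6 for the lead of 14218 bp.

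In most sets with ample signal 1 partner dominated, and it was the same one in every library. The lead of a set is the junction with the highest mean over all 6 libraries. It was also the highest in all 6 libraries separately in 689 sets (51.4%), in 5 libraries in 271 and in 4 in 232. Among the 199 sets with a summed mean signal of 100 or more the lead was highest in all 6 libraries in 89.4%, and its median share of the set was 86.5%. Among the 121 sets under 10 the same figures were 9.92% and 60.0%. The SD of the lead share between replicates fell over the same range, from a median of 17.3 percentage points in WT and 16.8 in 5xFAD to 3.03 and 4.14. The lead was picked on the same 6 libraries in which it is counted, so these figures are descriptions and not a test. Each listed partner also passes the listing threshold in at least 1 genotype, which limits how large a lead share a weak set can show.

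**Figure D2:**
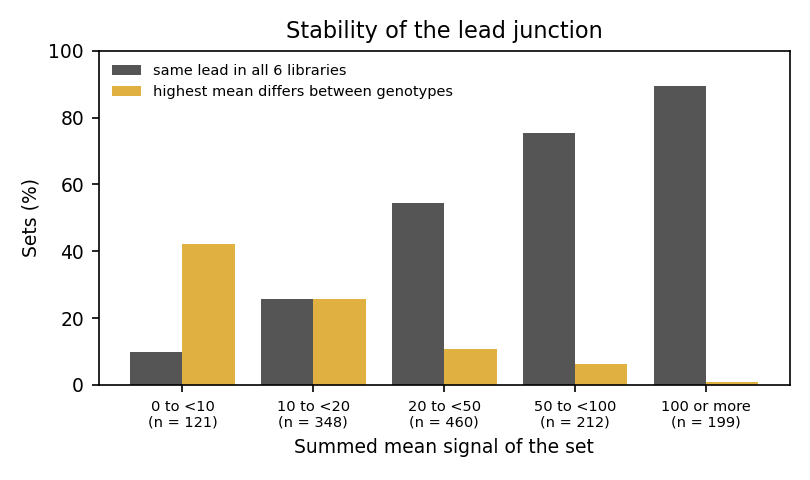
Percentage of sets (vertical axis) in which the lead was highest in all 6 AT libraries (dark bars) and in which the highest mean differed between WT and 5xFAD (yellow bars), by summed mean signal of the set. The dark bars rise from 9.92% to 89.4% while the yellow bars fall from 42.1% to 1.01%.

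The set with the most signal belonged to Gigyf2, which encodes a translational repressor. Its 4 junctions share an acceptor. The lead chr1:89260678-89276583, 15905 bp long, gave 2384, 3194 and 2785 in WT and 2334, 2884 and 2751 in 5xFAD. The second, chr1:89260678-89270686, gave 101, 90.7 and 120 in WT and 99.6, 75.9 and 59.0 in 5xFAD. The 2 others, of 1176 and 16490 bp, stayed between 2.60 and 18.9. So the lead held 95.5% to 96.8% of the set in the 6 libraries, and the genotypes overlapped (WT 95.8% ± 0.448, 5xFAD 96.3% ± 0.730; SD, n = 3 each).

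The next sets in order of summed signal belonged to Phf21a, Tmeff1, Elf2, Zfp148 and Aagab, with 2 sets each in Elf2 and Zfp148. The acceptor set of Elf2, led by the same 17986 bp junction as its donor set, had lead shares of 88.7% to 93.0%. Phf21a encodes a reader of histone H3 in the LSD1 complex. Its shared-donor lead of 16676 bp held 96.4%, 97.4% and 97.8% in WT and 97.5%, 97.4% and 98.7% in 5xFAD. In Aagab, which encodes an adaptin-binding protein, the acceptors lay only 96 bp apart and the lead of 2546 bp held 97.8% to 99%. Both are cases of a donor with 1 strongly preferred acceptor.

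Tmeff1, a transmembrane protein gene, had a less one-sided set of 6 junctions at 1 acceptor. Its lead chr4:48617452-48630203 gave 1144, 917 and 836 in WT and 1274, 830 and 908 in 5xFAD. The longest partner, of 45838 bp, gave 67.4, 94.3 and 96.1 in WT and 30.3, 94.2 and 98.7 in 5xFAD. The lead share was highest in the replicates numbered 1, at 87.8% in WT and 92.3% in 5xFAD, against 78.9% to 82.4% in the other libraries. Zfp148, a zinc finger transcription factor gene, used chr16:33421406-33435060 as the lead of both of its strongest sets. It held 89.1%, 91.7% and 92.4% of its acceptor set in WT and 96.0%, 90.0% and 89.8% in 5xFAD, and 98.9% to 99.7% of its donor set.

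**Figure D3:**
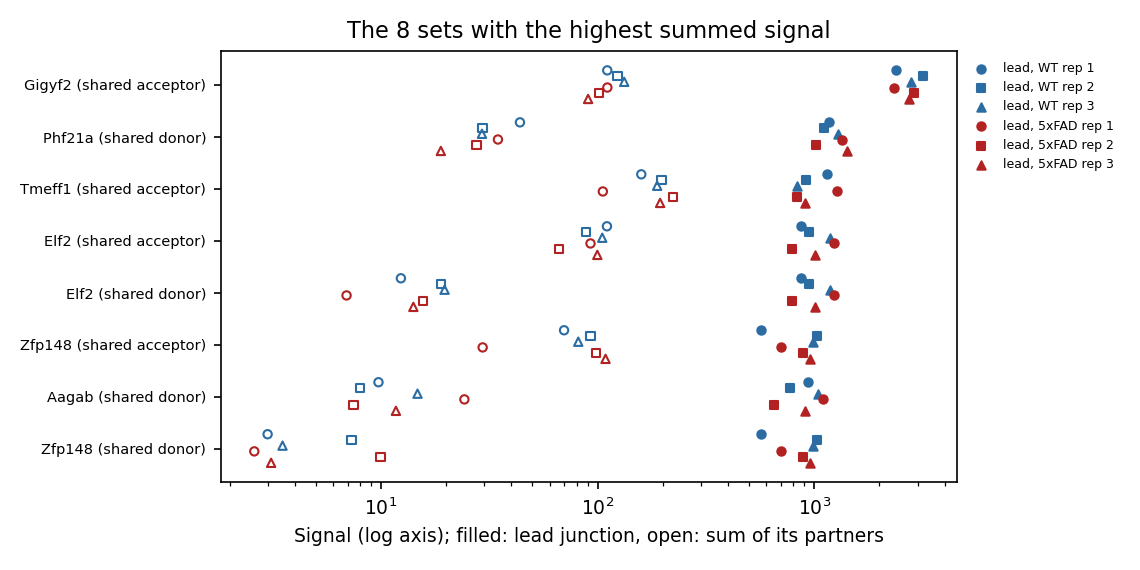
Signal on a log axis for the 8 sets with the highest summed mean signal, with filled markers for the lead junction, open markers for the sum of its partners, blue for WT and red for 5xFAD, and 1 marker shape per replicate number. The lead lies far to the right of its partners in each library of each set, and blue and red markers overlap.

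The most one-sided sets with a summed mean of at least 20 were those of Nfix (99.6% in the lead over all libraries), the Zfp148 donor (99.4%), Robo1 (99.2%), Rnf169 (99%) and Brinp1 (98.7%). The lead of Nfix, a nuclear factor I gene, was a junction of 532 bp, below the length range, with signals of 890, 726 and 829 in WT and 1049, 725 and 590 in 5xFAD. Its longer partner of 7492 bp gave 0, 0.912 and 6.55 in WT and 4.33, 2.26 and 5.50 in 5xFAD. In the axon guidance receptor gene Robo1 the lead was the short interval of 2574 bp (228 to 402 in the 6 libraries), whereas in Rnf169, a ubiquitin ligase gene, it was the long one of 20379 bp (630 to 1063).

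In the sets of C2cd5, Gabbr2, Man1a2, Ppp3cc and Ddhd2 the lead held about as much as its partners together, 49.8% to 50.3% over all libraries. Those of Man1a2, Ppp3cc and Ddhd2 had 3 junctions each, and no single partner matched the lead in mean signal. Gabbr2 encodes a subunit of the GABA-B receptor. Its donor was joined to an acceptor at 30797 bp with 16.5, 7.75 and 7.95 in WT and 19.1, 7.91 and 9.08 in 5xFAD, and to one at 21089 bp with 3.37, 8.66 and 9.36 in WT and 20.8, 14.0 and 11.7 in 5xFAD. The longer led only in WT replicate 1. Ppp3cc, a catalytic subunit of calcineurin, had lead shares of 38.5%, 48.9% and 41.3% in WT and 35.7%, 52.4% and 80.7% in 5xFAD, a spread within 5xFAD (SD 22.7) larger than the difference of the means.

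Neither the shorter nor the longer interval was favoured throughout. The lead was the shortest interval in 686 sets (51.2%), counting pairs and larger sets together. It was so in 321 of 584 sets with a shared acceptor (55.0%) and in 244 of 506 with a shared donor (48.2%). Among pairs alone it was the shorter in 590 of 1084 (54.4%). By shared site this was 263 of 456 pairs with a shared acceptor (57.7%) and 217 of 430 with a shared donor (50.5%). In pairs, the share of the shorter partner depended on how much longer the other one was. Where the lengths differed by under 5000 bp (259 pairs), the median share of the shorter was 44.8%, 44.1% and 44.5% in WT and 47.7%, 39.5% and 37.5% in 5xFAD. Where they differed by 20000 bp or more (305 pairs), it was 64.5%, 59.8% and 60.0% in WT and 75%, 59.6% and 59.8% in 5xFAD.

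The libraries differed in this measure along another line than genotype. At each step of length difference the share of the shorter partner was highest in 5xFAD replicate 1 and next highest in WT replicate 1, the 2 libraries with the fewest reads. The same 2 libraries led at 5000 bp and above in the pairs whose junctions were all listed through both genotypes: at 20000 bp or more (111 pairs) they gave 67.6% and 63.6%, and the other libraries 54.0% to 56.6%. Over all sets the median share of the shortest interval was 52.2%, 47.6% and 48.6% in WT and 60.0%, 46.3% and 43.8% in 5xFAD (exact two-sided permutation test, p = 1). Without 5xFAD replicate 1 the difference of the means, 5xFAD minus WT, went from 0.553 to -4.43 percentage points (exact permutation test, p = 0.2). The part of depth or of RNA quality in this was not tested.

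**Figure D4:**
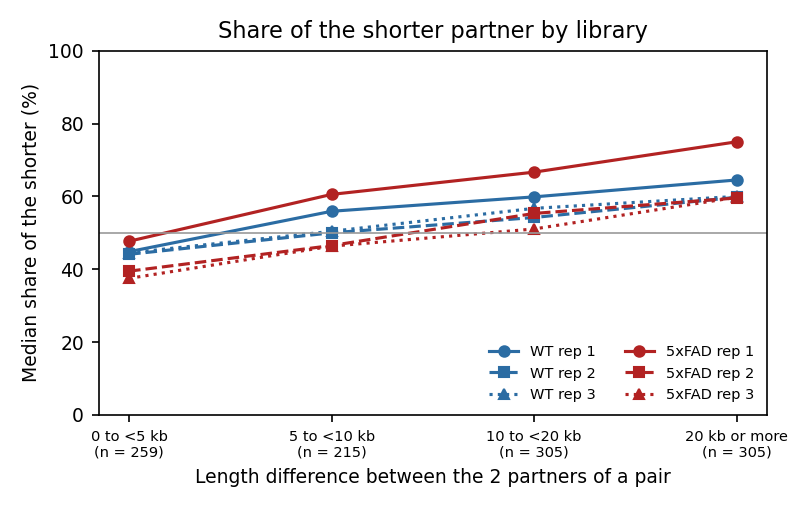
Median share of the shorter partner in percent (vertical axis) in pairs, by the difference in length between the partners in kb, with 1 line per AT library, blue for WT and red for 5xFAD. All 6 lines rise from left to right, and 5xFAD replicate 1 (solid red) is the highest at every step.

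Long leads were low in 5xFAD replicate 1 in Ankrd12 and Zfp609, though not in every host. In Ankrd12, an ankyrin repeat gene, the lead of 29016 bp gave 227, 392 and 213 in WT and 35.5, 657 and 511 in 5xFAD, while the shortest partner at the same acceptor, of 3306 bp, gave 16.1, 13 and 13.3 in WT and 26.0, 15.8 and 25.1 in 5xFAD. The lead share was 37.3% in 5xFAD replicate 1 and 70.0% to 80.7% elsewhere. Zfp609, a known circle-forming gene, had a lead of 64520 bp, above the length range, at 0.866 in 5xFAD replicate 1 and 7.06 to 17.7 elsewhere. By contrast, the Asxl3 lead of 36477 bp was highest in 5xFAD replicate 1, at 52.8 against 24.4 to 51.1 elsewhere.

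In other hosts of well-studied circles the lead stayed the same junction or the set was weak. In Homer1, a postsynaptic scaffold gene, chr13:94111710-94126034 gave 132, 163 and 91.2 in WT and 41.6, 152 and 112 in 5xFAD, and its shorter partner 43.0, 26.9 and 24.8 and 19.9, 23.0 and 16.3. The lead share was lowest, 67.6%, in 5xFAD replicate 1, and was 80.0% ± 5.33 over the WT libraries and 80.6% ± 11.2 over the 5xFAD libraries (SD, n = 3 each). In Elavl2, a neuronal RNA-binding protein gene, the lead of 3053 bp held 66.3% to 84.8%. The 4 sets of Fmn1, a formin gene, had summed mean signals of only 15.6 to 26.8 and lead shares that overlapped between genotypes.

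The median lead share of a library overlapped between the genotypes. Their median over the 1340 sets was 73.8%, 70.5% and 71.9% in WT and 75%, 71.3% and 71.2% in 5xFAD (means 72.1% ± 1.66 and 72.5% ± 2.18, SD; exact two-sided permutation test, p = 0.7). The share of sets in which the lead was the highest junction was 82.8%, 87.9% and 83.8% in WT and 80.7%, 88.0% and 86.2% in 5xFAD (p = 0.9, exact permutation test).

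**Figure D5:**
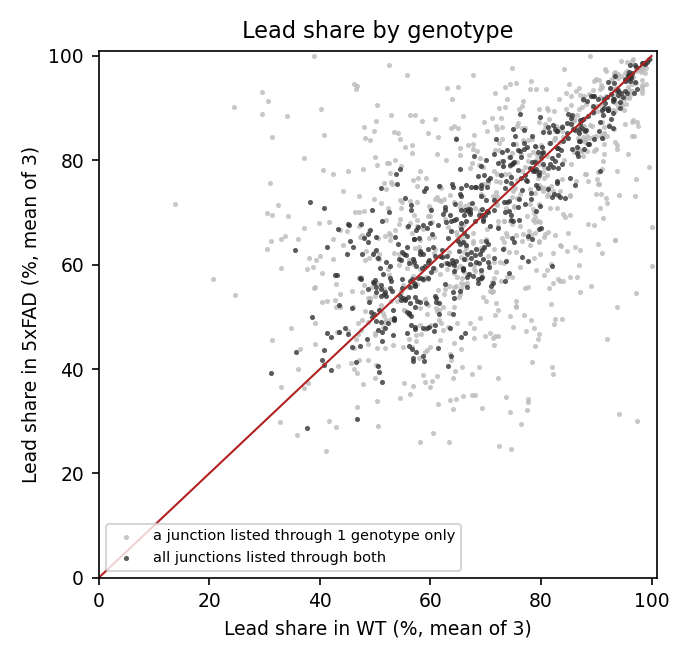
Mean lead share in WT (horizontal axis) against that in 5xFAD (vertical axis), in percent, 1 point per set, with grey points for sets that hold a junction listed through 1 genotype only, dark points for the other 509 sets and a red line of equality. The dark points lie closer to the line than the grey ones.

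The partner ratio, log2 of the lead's signal plus 1 over the partners' summed signal plus 1, was called in 0 of 1340 sets (limma, Benjamini-Hochberg adjusted over all 2001 sets; 0% called in the whole table, smallest adjusted p 0.53). At an unadjusted p under 0.05 there were 89 sets (6.64%), against 5.4% of all 2001 sets, with the lead share higher in 5xFAD in 43 and lower in 46. Of these 89, 84 held a junction listed through 1 genotype only (94.4%; 62.0% of all 1340 sets). Over the alternatives the count ran from 53 without WT replicate 1 to 117 without replicate 1 of both genotypes, the latter chosen after seeing the data. edgeR's quasi-likelihood test on whole reads also called 0 of these sets and 0 of all 2001, with 59 of the 1340 at an unadjusted p under 0.05. The share of all sets under 0.05 was not recorded for these alternatives. The ratio separated the genotypes with no overlap upward in 82 sets (6.12%; 5.5% of all sets) and downward in 76 (5.67%; 5.25% of all sets). The median difference was -0.02 over these sets and -0.03 over all sets, on the log2 scale.

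In 6 of the 10 sets taken as the 5 with the smallest p in each direction, those of Creb1, Smg1, Mad1l1, Ube2j1, Mga and Psma6, one partner was listed through WT only and the other through 5xFAD only, and the summed mean signal was under 10. In Creb1, the cAMP-responsive transcription factor gene, 1 acceptor was joined at 10113 bp with signals of 2.99, 1.37 and 2.34 in WT and 16.5, 2.71 and 4.30 in 5xFAD, and at 8039 bp with 2.99, 3.19 and 3.98 in WT and 0 in all 3 5xFAD libraries. The WT signals of the shorter junction rested on 8, 14 and 17 reads. For the longer, the groups overlapped by signal in replicate values of 2.99 in WT and 2.71 in 5xFAD. The adjusted p of the ratio was 0.53 (limma).

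Smg1, a kinase of nonsense-mediated decay, had an acceptor set with lead shares of 23.1%, 50% and 19.0% in WT and 100%, 83.3% and 90.9% in 5xFAD. Mga, which encodes a MAX partner, had a donor set in which the 2217 bp interval held 100%, 100% and 92.3% in WT and 20.0%, 47.5% and 22.7% in 5xFAD. In Psma6, a proteasome subunit gene, the corresponding values were 100%, 82.4% and 100% and 0%, 44.4% and 50%. The groups did not overlap in these sets, whose summed mean signals were 6.80, 6.61 and 4.69. Mad1l1, a spindle checkpoint gene, Ube2j1, a ubiquitin-conjugating enzyme gene, and AI314180 were the others of the 5 sets with a higher lead share in 5xFAD, with adjusted p of 0.53 each (limma).

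Among the 5 sets with a lower lead share in 5xFAD and the smallest p, Cdkal1 and Sergef had partners of unequal strength. In Cdkal1, a tRNA-modifying enzyme gene, the lead of 26219 bp gave 8.61, 25.5 and 11.9 in WT and 12.1, 13.8 and 5.02 in 5xFAD, while the partner of 92197 bp was at 0 in all 3 WT libraries and at 4.33, 4.75 and 4.30 in 5xFAD. In Sergef, which encodes a guanine nucleotide exchange factor homologue, the lead of 44950 bp held 99.9%, 98.1% and 98.8% in WT and 88.8%, 97.1% and 98.0% in 5xFAD. Fam19a5, a secreted protein gene, had 87.2%, 82.5% and 62.9% in its 1534 bp junction in WT and 13.6%, 38.8% and 43.8% in 5xFAD. Adjusted p-values were 0.53, 0.866 and 0.866 (limma), so none of these passed the threshold.

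The rarer shared donor of Gigyf2 was also among sets without overlap. Its 31010 bp junction chr1:89230844-89261854 gave 13.1, 4.56 and 5.61 in WT and 0, 1.36 and 0 in 5xFAD, on 35, 20 and 24 reads and 0, 6 and 0 reads. Its partner at the same donor, chr1:89260678-89261854, gave 4.12, 18.7 and 9.59 in WT and 8.66, 11.3 and 12.4 in 5xFAD. The partner's share was 23.9%, 80.4% and 63.1% in WT and 100%, 89.3% and 100% in 5xFAD, a difference of 2.79 ± 0.93 (SE) in log2 ratio (limma, adjusted p = 0.866).

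Among the 509 sets in which all junctions were listed through both genotypes, the ratio was higher in 5xFAD with no overlap in 19 (3.73%) and lower in 18 (3.54%), beside 3.51% and 3.12% of the 770 such sets in the whole table. The 5 of them with the smallest p, chosen after their values were seen, were those of Sfxn5, Dpysl2, Fam188a, Rapgef4 and 9130011E15Rik. In Fam188a, a deubiquitinase gene, the shared donor was joined at 33120 bp with 14.2, 15.3 and 24.1 in WT and 30.3, 30.5 and 27.0 in 5xFAD, and at 45634 bp with 16.1, 11.4 and 18.2 in WT and 9.53, 8.81 and 7.41 in 5xFAD. The mean lead share was 53.7% ± 5.88 in the WT libraries and 77.4% ± 1.21 in the 5xFAD libraries (SD, n = 3 each), with no overlap between the genotypes and an adjusted p of 0.905 (limma).

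Dpysl2, which encodes the axonal collapsin response mediator CRMP2, gave lead shares of 35.1%, 57.4% and 55.8% in WT and 73.1%, 65.7% and 72.5% in 5xFAD. Rapgef4, a cAMP-responsive exchange factor gene, gave 97.0%, 89.6% and 85.7% and 73.2%, 78.1% and 82.3%. Sfxn5, a mitochondrial carrier gene, gave 59.3%, 64.2% and 70.5% and 90.1%, 72.9% and 89.1%. Each had groups that did not overlap and an adjusted p of 0.905 (limma), and 9130011E15Rik had groups that overlapped.

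The highest mean belonged to different junctions in WT and 5xFAD in 206 sets (15.4%), and 140 of these (68.0%) held a junction listed through 1 genotype only, as did 62.0% of all 1340 sets. Such sets were 42.1% of those with a summed mean signal under 10 and 1.01% of those at 100 or more. The 8 with the most signal were in Msra, Rprd1b, Mettl9, Stk3, Ctnnd2, Khdrbs3, Kcnt2 and Grik1. In Msra, the methionine sulfoxide reductase gene, the 2 leading junctions lay outside the length range, at 103328 bp with 100, 101 and 122 in WT and 91.8, 92.4 and 102 in 5xFAD, and at 79927 bp with 58.0, 110 and 106 and 142, 73.4 and 76.0. The switch rested on 5xFAD replicate 1, since the longer led in the other two 5xFAD libraries.

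In Mettl9, Khdrbs3 and Kcnt2 the lead was at 0 in 5xFAD replicate 1 alone. The Mettl9 lead of 9562 bp, in a histidine methyltransferase gene, gave 53.5, 54.0 and 17.3 in WT and 0, 119 and 75.3 in 5xFAD. Khdrbs3, which encodes a splicing regulator, gave 17.2, 35.8 and 18.9 and 0, 54.7 and 46.8 for its lead of 36104 bp. Rprd1b, with acceptor partners of 22832 and 14218 bp, ranged in lead share from 16.7% to 75.6% within 5xFAD.

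Grik1 and Stk3 had a higher mean lead share in 5xFAD. Grik1 encodes a kainate receptor subunit. Its 22021 bp lead held 41.4%, 48.5% and 48.3% of its pair in WT and 58.8%, 64.8% and 66.3% in 5xFAD, with no overlap, a log2 ratio difference of 0.99 ± 0.54 (SE) and an adjusted p of 0.905 (limma). Stk3, a kinase of the Hippo pathway, had 31.4%, 48.8% and 49.0% in WT and 48.6%, 59.2% and 66.2% in 5xFAD, where the groups overlapped. The adhesion gene Ctnnd2 also overlapped, at 33.1% to 58.0% and 43.9% to 60.6%.

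By signal, 0 of the 2265 junctions were called between the genotypes (limma on log2(signal + 1), adjusted over 7025 junctions; 0% called in the whole table, smallest adjusted p 0.368). At an unadjusted p under 0.05 there were 108 (4.77%), against 5.68% of all junctions, with 43 higher and 65 lower in 5xFAD and only 8 listed through both genotypes. edgeR's quasi-likelihood test on whole reads called 0 of these junctions and 0 of all 7025, with 61 of the 2265 at an unadjusted p under 0.05. DESeq2 called 0 of these junctions and 1 of all 7025, with 66 of the 2265 at an unadjusted p under 0.05. Over all alternatives the count under 0.05 ran from 25 of 1732, at a minimum mean signal of 5, to 151 without replicate 1 of both genotypes. The share of all junctions under 0.05 was not recorded for these alternatives. Groups did not overlap upward in 85 junctions (3.75%; 4.43% of all) and downward in 160 (7.06%; 6.65% of all). The median log2 difference was -0.04, against -0.06 over all junctions, -0.02 and -0.04 after scaling to library totals, and 0.04 and 0.02 in edgeR's fit of the whole reads, so its sign was not the same in every fit. In the authors' deposited table the adjusted p was under 0.05 for 89 of these junctions (3.93%; 3.76% of all 7025), 32 higher and 57 lower. Of the 89, 31 were listed through both genotypes, which is 2.16% of the 1432 such junctions, against 1.95% of 4199 in the whole table. Among junctions listed through 1 genotype only the shares were 6.96% and 6.44%.

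The 10 junctions taken as the 5 with the smallest p in each direction were all listed through 1 genotype only. The junctions higher in 5xFAD were in Wdfy3, Apba2, Hunk, Scamp1 and Psma6, and the lower ones in Creb1, Pip4k2b, Scyl3, Gigyf2 and Stxbp4. The Wdfy3 junction chr5:102301850-102305028, in a gene for an autophagy adaptor, was at 0 in all 3 WT libraries and at 2.60, 3.16 and 2.87 in 5xFAD, on 3, 14 and 12 reads. The Pip4k2b junction chr11:97583675-97594069, in a lipid kinase gene, was at 3.37, 2.51 and 4.21 in WT and at 0 in all 3 5xFAD libraries. In Apba2, an APP-binding adaptor gene, chr7:71839909-71860433 gave 0, 0.228 and 0 in WT and 5.20, 2.71 and 2.15 in 5xFAD. All 10 stood under 14 in every library, with adjusted p from 0.368 to 0.54 (limma).

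The 5 with the smallest p among junctions listed through both genotypes, chosen after their values were seen, were stronger. Cdc42bpa, a kinase gene of the cytoskeleton, had chr1:181961635-181970331 at 39.3, 22.3 and 26.9 in WT and 10.4, 14.2 and 12.4 in 5xFAD, which is a fitted log2 change of -1.16 ± 0.43 (SE; limma, adjusted p = 0.791). Gtdc1 had chr2:44607566-44611955 at 20.2, 18.9 and 24.1 in WT and 8.66, 9.26 and 10.8 in 5xFAD, which is a fitted log2 change of -1.06 ± 0.45 (limma, adjusted p = 0.814). The groups did not overlap in these, nor in Spire1, Ppp3cc and 9130011E15Rik, and none passed the threshold.

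The hosts with the most had 7 junctions each that met the rule: Uimc1, Tmeff1, Psd3, Vps41 and Zfp148. Uimc1 encodes a ubiquitin-binding protein of the BRCA1-A complex, and its 7 junctions joined 4 donors to 2 acceptors in 5 sets. At its strongest acceptor the intervals of 13833 and 19067 bp were close in signal, at 171, 91.2 and 109 and 158, 88.9 and 103 in WT, and at 175, 99.2 and 73.6 and 101, 69.6 and 126 in 5xFAD. The lead share there was 40.4% ± 5.03 over the WT libraries and 41.7% ± 14.0 over the 5xFAD libraries (SD, n = 3 each). In Vps41, a subunit of the HOPS tethering complex, the lead of 3862 bp at a shared donor held 90.1%, 88.3% and 87.3% in WT and 85.1%, 84.0% and 80.4% in 5xFAD. These groups did not overlap (log2 ratio difference -0.63 ± 0.43, SE; limma, adjusted p = 0.905). In Psd3, an Arf6 exchange factor gene, 1 of 3 sets had groups without overlap, with lead shares of 52.2%, 70.5% and 68.5% in WT and 98.1%, 87.0% and 73.2% in 5xFAD (limma, adjusted p = 0.905).

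At the level of the host gene, read in the CG libraries, 0 of 893 hosts were called (limma on log2(FPKM + 1), 14500 genes tested; 0.0069% called) and 4 had an unadjusted p under 0.05, against 2.92% of all genes. Over the alternatives that count ran from 1 without 5xFAD replicate 2 to 21, both without the minimum mean and with replicate number in the fit. The share of all genes under 0.05 was not recorded for these alternatives. Still 0 hosts were called when the library labelled 5xFAD replicate 3 was left out, while 1.2% of 14527 genes were. The hosts' mean FPKM had a median of 18.7 (quartiles 10.8 and 36.2), against 9.18 over the genes tested. The FPKM of Gigyf2 was 22.1, 22.2 and 23.0 in the WT libraries and 20.0, 20.7 and 23.3 in the 5xFAD libraries. Tmeff1 stood at 35.4, 35.2 and 34.9 in WT and 29.0, 34.1 and 34.5 in 5xFAD, so the groups overlapped for Gigyf2, while every 5xFAD value of Tmeff1 lay below the lowest WT value. In a tissue sample, fewer cells of a type and less RNA per cell cannot be told apart.

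Of 44 genes listed as known or proposed regulators of circular RNA, from splicing factors to factors of decay, 43 were measured. None was called by limma, with or without the library labelled 5xFAD replicate 3, and 0 had an unadjusted p under 0.05 (0.0069% of all genes called; 2.92% under 0.05). The fitted difference was above 0 in 16 and below 0 in 27, with a median of -0.03 beside -0.01 over all genes. Eif2ak2, Ptbp2 and G3bp1 were among those with the smallest p. Eif2ak2 encodes PKR, a kinase known to bind circular RNAs with short duplexes. Its FPKM was 2.28, 1.96 and 2.07 in the WT libraries and 3.68, 4.28 and 2.01 in the 5xFAD libraries, where the third value is that of the library that goes against its label, with an adjusted p of 1.00 over all 6 libraries and 0.0976 without that library (limma). Ptbp2, a neuronal splicing repressor, stood at 44.0, 42.7 and 44.6 in WT and 38.4, 38.9 and 42.3 in 5xFAD. Neither passed the threshold.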

How the data were processed

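Both tables, from 12 hippocampal libraries, were used. The authors deposited, per the file headers, a normalized signal per junction and library (AT), beside log2 ratios, p-values and adjusted p-values of their own, and FPKM per gene (CG). The submitters' processing notes name mm9 and DESeq; for aligner, junction caller and strandedness, the sources used here give nothing. Signals were whole multiples of each library's smallest value (100% within 0.01), which gave 191408 to 695539 reads. Depth is unknown for FPKM.

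Sets were built from exact coordinates, printed as the file gives them. Tests were limma 3.58.1 (R 4.3.3), two-sided, with a mean trend, a pseudocount of 1, which understates changes of low values, a minimum mean of 0.5 and Benjamini-Hochberg adjusted p under 0.05, over the whole table. edgeR 4.0.16 and DESeq2 1.42.0 on recovered counts were alternatives, since the authors deposited no raw counts. The scripts were tested on simulated data. Library-level medians were compared by exact permutation. Tables were never tested against each other.

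The members, lists and rules were chosen with earlier results of these data known. Named were the 8 strongest sets, and the 5 per direction with the smallest p by ratio and by signal where none was called. The 8 strongest with a different leader by genotype were added, and the 5 with the closest ends, extended to all 7 tied at 3 bp. So were the 5 whose lead was nearest to its partners together and the 5 most one-sided. The 5 hosts with most members, fixed circle hosts and 4 regulators completed the list. Of these, 1 circle host and 1 regulator are not reported here.

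Same-numbered replicates were not treated as pairs. No sequence of mm9 was used here, so junction sequences, exons and introns are not described.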

Additional observations from a re-analysis of the deposited data

How the results depend on the processing

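The counts of called junctions (0 of 2265), sets (0 of 1340) and hosts (0 of 893) were the same under all alternatives run: 17 for junctions, 15 for sets and 9 for hosts, covering pseudocounts, minimum, trend, scaling, edgeR, DESeq2 (junctions only), each library left out and, chosen after seeing the data, replicate 1 of both genotypes left out. The replicate block also called 0 of each, with 107 junctions, 93 sets and 21 hosts at an unadjusted p under 0.05. Shares over the whole tables were not recorded for these unadjusted counts. Deviations from the genotype mean, on log2(value + 1) per junction or gene, were correlated between WT and 5xFAD libraries. Between same-numbered libraries these correlations were 0.0676, 0.0884 and 0.0401 in AT and 0.415, 0.279 and 0.0398 in CG. Not every library's deviations correlated best with those of its own number. The library-level differences, 5xFAD minus WT in percentage points, were small and changed sign. For sets with a summed mean signal of at least 10, lead share went to -0.00161, shortest-interval share to -0.0654 and sets with the lead highest to -0.219. In sets listed through both genotypes (chosen after seeing the data) the signal held went to -0.0377, and without replicate 1 of both genotypes the shortest-interval share went to -3.08. Leaving out 1 library gave -0.338 to 0.562 for signal held (0.109 with all), -0.832 to 1.28 for lead share (0.427), -4.43 to 3.69 for shortest-interval share (0.553) and -1.42 to 2.24 for sets with the lead highest (0.0995). The cause was not tested. Depth limits weak sets most: 172 of the junctions were at 0 in 5xFAD replicate 1 and 178 in WT replicate 1, against 5 to 44 elsewhere.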

Other observations

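In 25 cases, in 23 hosts, 2 starts and 2 ends of a gene were joined in all 4 combinations, each by a junction that met the rule. In such a grid the log2 odds is the sum of the log2(signal + 1) of the 2 matched combinations minus that of the 2 crossed ones. Matched means first start with first end and second with second. Without the added 1 it would be 0 where the ends combine independently. With the added 1, weak junctions can move it from 0, as can the need for all 4 to be listed. The sign is therefore a description and no measure of independence. The mean of these odds over the 6 AT libraries had a median of 0.16 and ran from -2.84 to 4.11. It was above 0 in all 6 libraries in 5 grids, below 0 in all 6 in 6 grids, and mixed in 14. No test was made, since the grids share libraries and some share junctions.

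In Memo1, whose product is a mediator of cell motility, the odds were 3.56, 2.58 and 4.22 in WT and 4.68, 4.16 and 5.45 in 5xFAD. The junction of the second start with the second end, chr17:74641244-74657845, had a mean signal of 71.7 and the other three 2.03 to 7.95. In Arhgap32 the odds were -1.79, -0.54 and -1.21 in WT and -1.13, -2.09 and -1.31 in 5xFAD, with mean signals of 216 for chr9:31989426-31997646 and 124 for chr9:31989426-32015850. Senp6, a SUMO protease gene, gave -0.53, -1.88 and -5.25 in WT and -3.74, -1.88 and -3.75 in 5xFAD. The sign was the same in every library of these hosts.

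Psma6 was the grid whose sign followed the genotype, with 2.12, 1.17 and 2.71 in WT and -2.63, -1.83 and -0.58 in 5xFAD. It also had the lowest summed mean signal of the 25, 17.2, and was picked out after its values were seen. Its matched junction chr12:56508455-56513352 was listed through WT only and its crossed junction chr12:56511113-56513352 through 5xFAD only. The listing itself thus favours this direction of the odds. With 25 grids looked at and no test made, this is a description of these libraries.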
